A study of Mus musculus with 9 samples.

Results

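Iodide transport in the mouse thyroid was described through 7 genes, chosen by symbol: Slc5a5, Slc26a4, Slc26a7, Slc5a8, Ano1, Kcne2 and Kcnq1. All 7 were found among the 33924 genes of the count table. RNA sequencing of thyroid tissue had been carried out on 9 libraries, 3 labelled Smarcb1 KO, 3 labelled Arid2 KO and 3 labelled wild type, to compare tissue with and without a subunit of SWI/SNF, the complexes that move nucleosomes. Smarcb1 sits in the core of these complexes, while Arid2 is found in the form named PBAF. The labels give a genotype and a tissue for each library and no allele, Cre driver, promoter, strain, age or treatment, and none states that replicates are different animals. The p-values therefore set group differences against the spread between these libraries, which may be partly technical and not that between animals.

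The checks of the libraries bear on every value given here. Total counts lay between 33666251 and 89553766, with the Arid2-labelled libraries deepest. Levels are in CPM, the count scaled to library size after TMM. The Arid2-labelled group had 94.6, 77.7 and 59.9 CPM of Arid2, a range that holds all wild-type libraries, the lowest at 67.8 CPM. Arid2 transcript was thus not lower in the libraries that carry its name, and a deleted exon cannot be seen in counts per gene, so the groups are called Arid2-labelled and Smarcb1-labelled. The Smarcb1-labelled group had 47.5, 53.7 and 59.4 CPM of Smarcb1, against 65.9, 71.7 and 69.3 CPM in wild type, without overlap, with an edgeR adjusted p of 0.0651. The 6 thyrocyte markers, Tg, Tshr, Pax8, Nkx2-1 and Iyd among them, were detected in all 9 libraries and summed to between 228415 and 324657 CPM. Neighbouring tissue was not even: parathyroid markers summed to between 6092 and 16992 CPM in the Smarcb1-labelled libraries, to between 10.6 and 1581 CPM in the Arid2-labelled libraries and to between 8.16 and 4320 CPM in the wild-type libraries. Thymocyte markers reached 111 CPM in Smarcb1-labelled replicate 2 and 799.6 CPM in Arid2-labelled replicate 1, against at most 0.353 CPM in the other libraries.

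Thyroid follicular cells gather iodide from the blood and pass it into the follicle lumen, where it is bound to thyroglobulin for hormone synthesis. Slc5a5, the sodium/iodide symporter, carries iodide across the basolateral membrane on the sodium gradient kept by the sodium pump, and thyrotropin raises its level through cAMP. Kcnq1 and Kcne2 form a potassium channel of the same membrane that mouse thyroids need for normal iodide accumulation. On the apical side, Slc26a4 (pendrin) exchanges chloride for iodide, and Ano1 is a calcium-activated chloride channel that also conducts iodide. Slc26a7 is an anion exchanger whose loss leads to goitrous hypothyroidism in mice and people. Slc5a8 is a sodium-coupled monocarboxylate transporter of the apical membrane, once proposed as an iodide transporter.

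The 250 bases upstream of the start of 4 of these genes are shown, because the genes lie at very different levels in this tissue and their promoters differ in base composition. The sequences are from RefSeq on build GRCm38.p6, which had an entry for 5 of the 7 genes, without Slc26a7 and Kcnq1, and are written in the direction of the gene. Capitals mark the matches of 5 short motifs searched on both strands. The TATA box was searched as TATAAA and the CCAAT box by its own letters. The GC box was searched as GGGCGG. The half-site of the cAMP response element was searched as TGACG. The core that Nkx2 family factors recognise was searched as CAAGTG. No matches overlap in the windows shown. Slc5a5 is at chr8:70892758-70893007 on the minus strand, Slc5a8 at chr10:88885742-88885991 on the plus strand, Ano1 at chr7:144738574-144738823 on the minus strand and Slc26a4 at chr12:31559985-31560234 on the minus strand.
Slc5a5: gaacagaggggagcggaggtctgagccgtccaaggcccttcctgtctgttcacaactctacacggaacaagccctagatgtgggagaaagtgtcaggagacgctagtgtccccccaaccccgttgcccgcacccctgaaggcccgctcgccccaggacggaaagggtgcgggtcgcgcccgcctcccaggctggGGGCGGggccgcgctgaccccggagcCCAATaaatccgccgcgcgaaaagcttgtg
Slc5a8: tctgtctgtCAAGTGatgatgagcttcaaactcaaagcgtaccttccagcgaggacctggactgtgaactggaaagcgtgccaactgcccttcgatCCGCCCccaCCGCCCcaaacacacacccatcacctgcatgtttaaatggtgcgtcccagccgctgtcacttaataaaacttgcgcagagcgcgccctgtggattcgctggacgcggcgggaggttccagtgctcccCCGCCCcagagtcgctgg
Ano1: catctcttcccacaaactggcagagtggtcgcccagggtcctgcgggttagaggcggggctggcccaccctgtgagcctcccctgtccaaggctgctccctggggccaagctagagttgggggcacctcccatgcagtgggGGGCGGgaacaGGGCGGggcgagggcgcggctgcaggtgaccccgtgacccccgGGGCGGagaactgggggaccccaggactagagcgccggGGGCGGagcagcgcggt
Slc26a4: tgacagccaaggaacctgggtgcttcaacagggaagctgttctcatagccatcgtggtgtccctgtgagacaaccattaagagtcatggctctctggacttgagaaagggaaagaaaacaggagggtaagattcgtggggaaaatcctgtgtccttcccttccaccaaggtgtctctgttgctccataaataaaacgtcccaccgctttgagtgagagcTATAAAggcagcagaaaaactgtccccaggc
The Slc5a5 window held 66.4% G and C and 21 CpG dinucleotides, with 1 CCAAT match and 1 GC box. The Slc5a8 window held 58.8% G and C, 17 CpG dinucleotides, 3 GC boxes and 1 Nkx2 core. Ano1 had 72% G and C, 16 CpG dinucleotides and 4 GC boxes. Slc26a4, the gene with the fewest reads, had 49.6% G and C, 4 CpG dinucleotides and the TATA box. Kcne2 had 2 windows, not shown, with 52.4% and 48% G and C and 9 and 1 CpG dinucleotides. The first of these held 2 half-sites of the cAMP response element and 1 GC box, and the second none of the motifs. The median of 32851 promoter windows of this length was 52.4% G and C with 6 CpG dinucleotides. Among those windows 12.4% held the TATA box, 33.8% CCAAT, 32.7% the GC box, 17.8% the half-site and 11.6% the Nkx2 core. These matches describe letters and show no bound factor.

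The 7 genes ran from among the most abundant in the tissue to barely detected. Per length of exon, Slc26a7 averaged 253 CPM per kb in wild-type thyroid, rank 65 of 31062 genes with a length, and Slc5a5 159 CPM per kb, rank 123. Slc5a8 followed at 23.7 CPM per kb and Ano1 at 5.38 CPM per kb. The potassium channel pair was lower, with Kcnq1 at 1.02 CPM per kb and Kcne2 at 0.183 CPM per kb. Slc26a4, the pendrin gene, came last at 0.0189 CPM per kb, rank 20115. In wild-type thyroid the libraries of each gene lay above all libraries of the next in this order. Over all 9 libraries, each gene lay above the next within every library for 4 of the 6 neighbouring pairs. The exceptions were Slc5a8 above Ano1, which held in 8 of 9 libraries, and Kcne2 above Slc26a4, which held in 6 of 9. Together the 7 genes took between 0.0998% and 0.258% of a library's counts, and Slc26a7 held between 62.6% and 80.6% of that share.

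**Figure D1:**
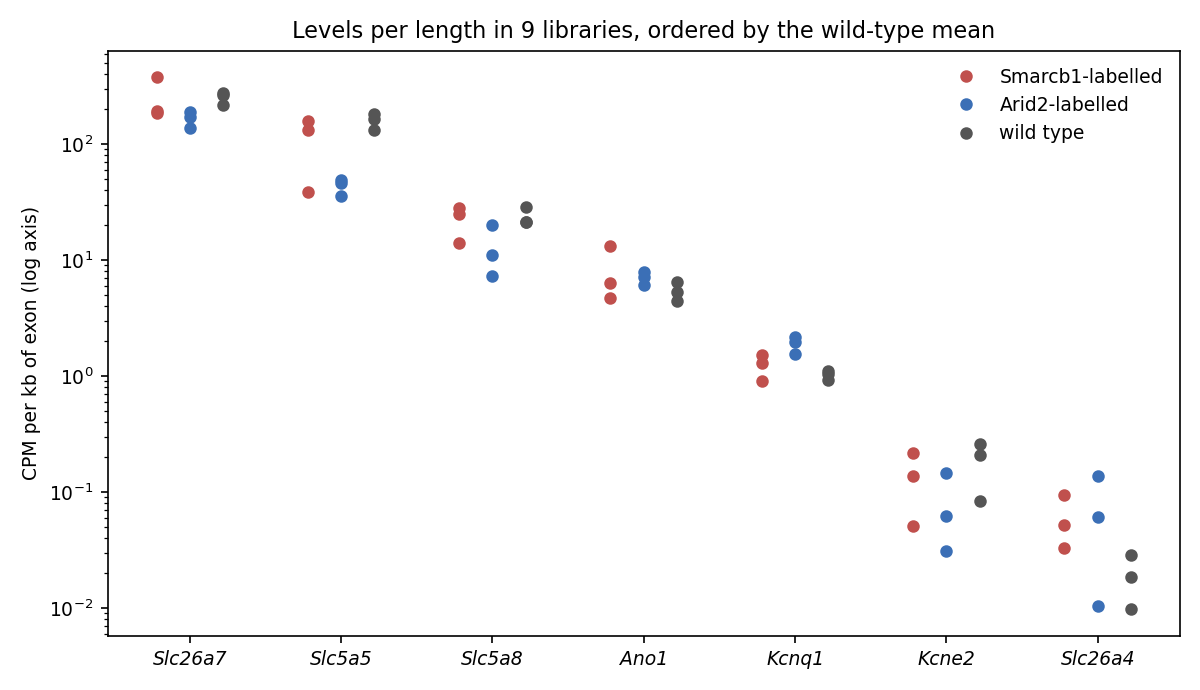
Levels of the 7 genes as CPM per kb of exon on a log axis, with 1 point for each of the 9 libraries, coloured by group. Slc26a7 and Slc5a5 stand highest and Slc26a4 lowest, and the wild-type points of neighbouring genes do not overlap.

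Of the 6 members tested, Slc5a5 had the largest log2 fold change, in the Arid2-labelled group. It had 105, 143 and 134 CPM there, against 389, 533 and 478 CPM in wild type. All 3 Arid2-labelled libraries lay below every wild-type library, by a factor of 3.67 in the fit, while groups that do not overlap in that direction were found for 12.6% of the genes tested. The log2 fold change was -1.87 (SE 0.43, 95% interval -2.84 to -0.91), with an unadjusted p of 0.00165 and an adjusted p of 0.0944 over 17079 genes by edgeR's quasi-likelihood test, so it did not pass. DESeq2 gave an adjusted p of 0.000106 and edgeR on only the 6 libraries compared 0.0133. Smarcb1-labelled replicate 3 is in the fit as part of the common spread, and without it the edgeR adjusted p was 0.00805. Over all 9 fits without 1 library the log2 fold change lay between -1.99 and -1.75 and the adjusted p between 0.00805 and 0.274. In bulk tissue, fewer cells of a type and less RNA per cell cannot be told apart. Scaled to thyrocyte markers in place of all genes, the log2 fold change was -1.73 with an adjusted p of 0.114.

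In the Smarcb1-labelled libraries Slc5a5 had 386, 462 and 113 CPM. Replicate 1 lay just below the lowest wild-type library, replicate 2 within the wild-type range, and replicate 3 lay within the range of the Arid2-labelled libraries. The group mean was 320.2 ± 184 CPM, against 467 ± 72.7 CPM in wild type (SD, n = 3 each), and the groups overlapped. The log2 fold change from wild type was -0.54 (95% interval -1.48 to 0.39, edgeR adjusted p = 0.407), -0.14 without replicate 3 and -0.90 without replicate 2. Against the Arid2-labelled libraries it was 1.33 (SE 0.42, 95% interval 0.38 to 2.28, edgeR adjusted p = 0.0589), which did not pass. Without replicate 3 it was 1.73 with an edgeR adjusted p of 0.00688, and DESeq2 on all libraries gave an adjusted p of 0.00462. Without both libraries that hold thymus markers it was 0.84 (edgeR adjusted p = 0.227). Over the 9 fits without 1 library it lay between 0.97 and 1.73, with edgeR adjusted p between 0.00688 and 0.172.

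Slc5a5 was also read against other thyroid transcripts of the same library. Per 1000 Tg counts it had 1.56, 2.05 and 0.375 counts in the Smarcb1-labelled libraries, with 0.416, 0.446 and 0.550 in Arid2-labelled ones and 1.22, 2.06 and 1.95 in wild type. The order of the groups was thus the same relative to thyroglobulin mRNA as relative to all mRNA. Replicate 3 of the Smarcb1-labelled group again lay at the low level. Tg itself had a log2 fold change of -0.01 in the Arid2-labelled libraries and -0.09 in the Smarcb1-labelled libraries against wild type, with edgeR adjusted p of 0.994 and 0.869.

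**Figure D2:**
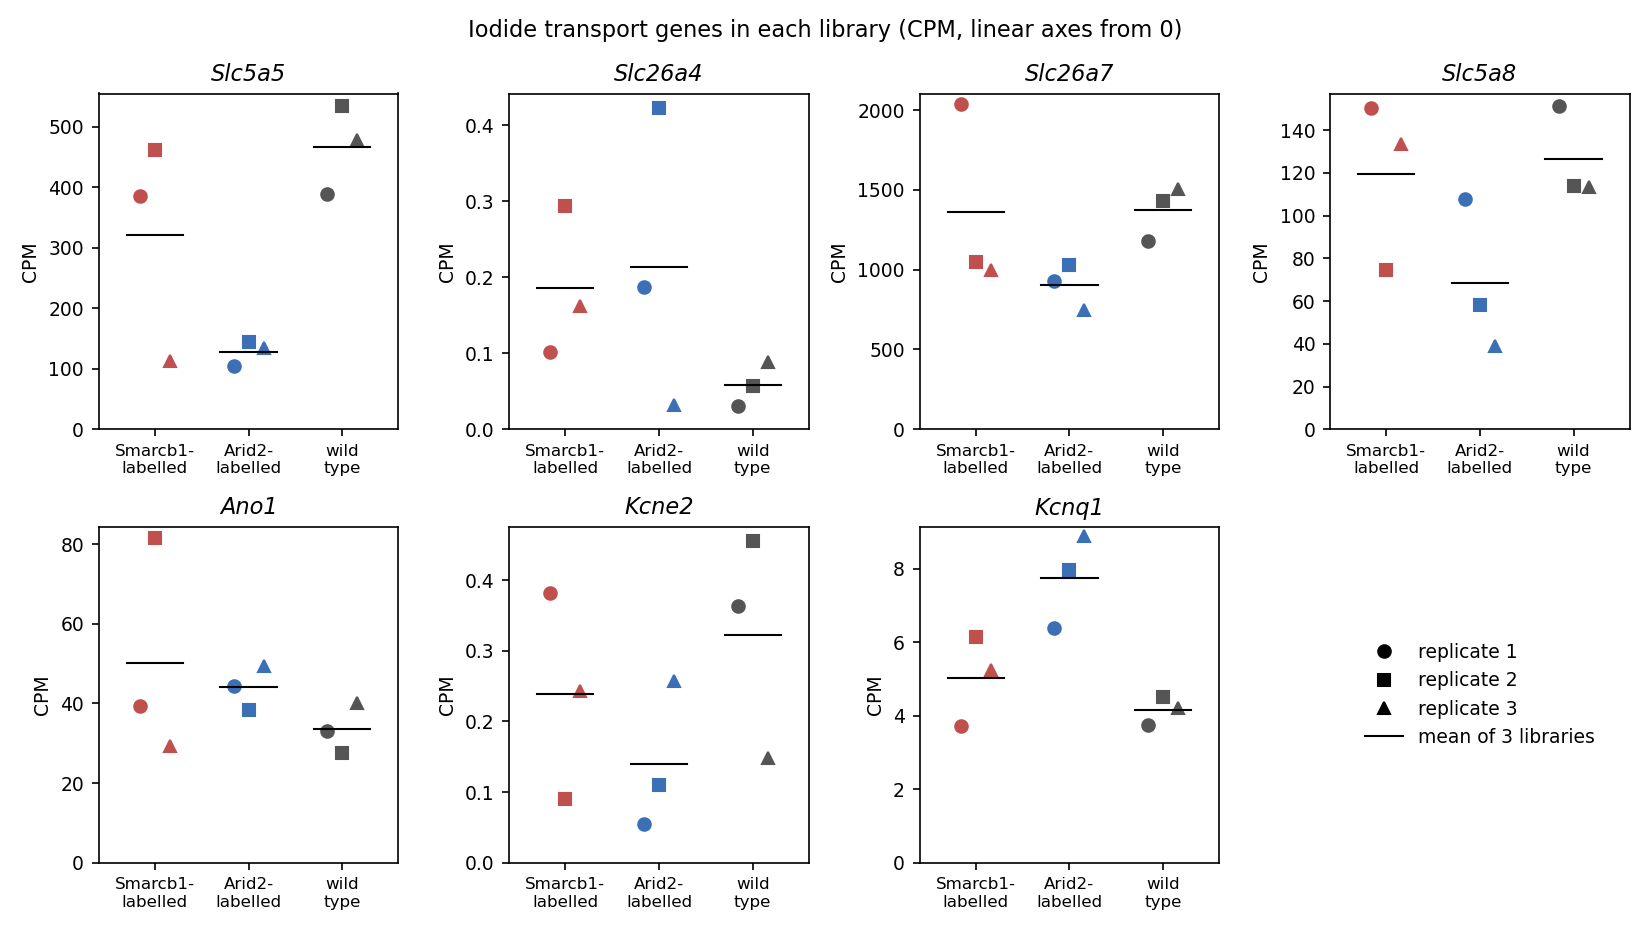
CPM of each of the 7 genes in each of the 9 libraries, in 1 panel per gene, with groups from left to right as Smarcb1-labelled, Arid2-labelled and wild type and a line at each group mean. The 3 Arid2-labelled points of Slc5a5 and Smarcb1-labelled replicate 3 lie between 105 and 143 CPM, against 386 CPM or more in the other 5 libraries.

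The basolateral potassium channel subunits were low throughout. Kcnq1, the pore-forming subunit, had 6.38, 7.98 and 8.88 CPM in the Arid2-labelled libraries, against 3.76, 4.52 and 4.21 CPM in wild type. All 3 Arid2-labelled libraries lay above every wild-type library, a direction without overlap in 12.9% of genes. The log2 fold change was 0.89 (SE 0.23, 95% interval 0.38 to 1.41, unadjusted p = 0.00329) and the edgeR adjusted p of 0.118 did not pass, while DESeq2 gave an adjusted p of 0.0124. In the Smarcb1-labelled libraries Kcnq1 had 3.71, 6.16 and 5.25 CPM, overlapping wild type. Its log2 fold change was 0.27 from wild type (edgeR adjusted p = 0.447) and -0.62 from the Arid2-labelled libraries (95% interval -1.13 to -0.11, edgeR adjusted p = 0.0859). Those 2 groups did not overlap, a lower position that 20.5% of genes shared. Without Smarcb1-labelled replicate 2 it was -0.79 with an edgeR adjusted p of 0.0437, and DESeq2 on all libraries gave 0.0459. Without both libraries that hold thymus markers it was -0.92 (edgeR adjusted p = 0.0353).

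Kcnq1 overlaps its antisense transcript Kcnq1ot1 over 121 exonic bases, 2.96% of its exon length, and the labels do not say whether the counting used strand. Markers of several other cell types differed between the Arid2-labelled and wild-type libraries. Those of C cells, skeletal muscle, erythroid cells, brown fat and parathyroid overlapped. Endothelial markers (Pecam1, Cdh5, Emcn and Kdr) summed to between 489 and 577 CPM in the Arid2-labelled libraries and between 275 and 379 CPM in wild type. Airway epithelium markers (Scgb1a1, Scgb3a1, Muc5b, Bpifb1 and Foxj1) summed to between 23.5 and 61.1 CPM in the Arid2-labelled libraries and between 1.31 and 1.88 CPM in wild type. Smooth muscle markers (Acta2, Myh11, Tagln and Des) summed to between 124 and 284 CPM in the Arid2-labelled libraries and between 80.3 and 120.1 CPM in wild type. Cartilage markers were low, between 4.79 and 9.72 CPM in the Arid2-labelled libraries and between 1.94 and 2.55 CPM in wild type, where Matn1 was at 0. Fibroblast markers summed the other way, to between 1561 and 1892 CPM in the Arid2-labelled libraries and between 1915 and 2174 CPM in wild type. Of these, Dcn and Pdgfra lay lower without overlap (log2 fold changes of -0.70 and -0.56). Col1a1 and Col3a1 overlapped wild type (-0.15 and -0.02). The Smarcb1-labelled libraries also lay above wild type in summed cartilage markers (6.72 to 182 CPM) and below it in summed fibroblast markers (1361 to 1887 CPM). Most of the cartilage sums was Lect1, with means of 100, 7.06 and 2.22 CPM in Smarcb1-labelled, Arid2-labelled and wild-type libraries. Col2a1, Acan and Matn1 averaged 0.033, 0.286 and 0.053 CPM in the Smarcb1-labelled libraries. Col1a1 and Col3a1 averaged 112 and 787 CPM there, against 235 and 1154 CPM in wild type. Dcn and Pdgfra averaged 596 and 67.4 CPM, against 609 and 66.3 CPM. The endothelial, airway and smooth muscle marker sums of the Smarcb1-labelled libraries overlapped wild type. None of the endothelial, airway, smooth muscle or fibroblast markers was at 0 in every library of a group. The part of these cells in the Kcnq1 and Ano1 values was not tested. Kcne2, the beta subunit, had only 15, 4 and 9 counts in the Smarcb1-labelled libraries, with 5, 7 and 16 in Arid2-labelled ones and 12, 16 and 5 in wild type. The 3 groups overlapped. At this depth the summed counts per total were 0.718 of wild type in the Smarcb1-labelled libraries and 0.394 of wild type in the Arid2-labelled libraries, with intervals of counting error of 0.418 to 1.22 and 0.230 to 0.673. edgeR gave log2 fold changes of -0.45 and -1.23, with adjusted p of 0.699 and 0.447, so neither passed.

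Slc26a7, the anion exchanger and the most abundant of the 7 genes per length, had 2039, 1045 and 1000.4 CPM in the Smarcb1-labelled libraries, with 928, 1030.3 and 749.7 CPM in Arid2-labelled ones and 1178, 1430.2 and 1507 CPM in wild type. The Arid2-labelled libraries lay below all wild-type libraries, and the Smarcb1-labelled libraries spread across and beyond them. From wild type the log2 fold change was -0.60 in the Arid2-labelled libraries (95% interval -1.22 to 0.01, edgeR adjusted p = 0.347) and -0.01 in the Smarcb1-labelled libraries (95% interval -0.63 to 0.61, edgeR adjusted p = 0.984). Between the Smarcb1-labelled and Arid2-labelled libraries it was 0.59 (95% interval -0.03 to 1.21, edgeR adjusted p = 0.154). Smarcb1-labelled replicate 1 stood far above the other libraries, and without it the Smarcb1-labelled values were -0.43 from wild type and 0.18 from the Arid2-labelled libraries. Per length, Slc26a7 stood at 2.85, 1.22 and 4.78 times Slc5a5 in the Smarcb1-labelled libraries, with 4.76, 3.87 and 3.02 times in Arid2-labelled ones and 1.63, 1.45 and 1.70 times in wild type. The ratio was thus above every wild-type library in all 3 Arid2-labelled libraries and in Smarcb1-labelled replicates 1 and 3, and below them in replicate 2.

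Slc5a8 had 151, 74.5 and 134 CPM in the Smarcb1-labelled libraries, with 108, 58.4 and 39.0 CPM in Arid2-labelled ones and 152, 114 and 113 CPM in wild type. The Arid2-labelled libraries lay below wild type without overlap, with replicate 1 only just under the lowest wild-type library. The log2 fold change was -0.89 (95% interval -1.72 to -0.05), with an unadjusted p of 0.0392 and an edgeR adjusted p of 0.307, and it was -1.37 without Arid2-labelled replicate 1 (edgeR adjusted p = 0.163). In the Smarcb1-labelled libraries it was -0.08 from wild type (95% interval -0.90 to 0.75, edgeR adjusted p = 0.906). Against the Arid2-labelled libraries it was 0.81 (edgeR adjusted p = 0.150), 1.29 without Arid2-labelled replicate 1 (edgeR adjusted p = 0.0419) and 1.53 without both libraries that hold thymus markers (edgeR adjusted p = 0.0102).

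Ano1, the calcium-activated anion channel, had 39.2, 81.6 and 29.4 CPM in the Smarcb1-labelled libraries, with 44.5, 38.3 and 49.3 CPM in Arid2-labelled ones and 33.0, 27.7 and 40.1 CPM in wild type. One library, Smarcb1-labelled replicate 2, stood above every other library, and the groups overlapped. In that library smooth muscle markers summed to 208 CPM, skeletal muscle markers to 742 CPM and airway markers to 5.21 CPM, each the highest of its group. Thymocyte (111 CPM), erythroid (184 CPM) and brown fat (324 CPM) markers were also highest of the group there. Arid2-labelled replicate 3 had 284 CPM of smooth muscle, 1199 CPM of skeletal muscle and 61.1 CPM of airway markers, with Ano1 at 49.3 CPM. The part of other cells in this Ano1 value was not tested. The log2 fold change from wild type was 0.58 in the Smarcb1-labelled libraries (edgeR adjusted p = 0.278) and 0.39 in the Arid2-labelled libraries (edgeR adjusted p = 0.631). Without Smarcb1-labelled replicate 2 the first was 0.03, and the value against the Arid2-labelled libraries was -0.36 in place of 0.19.

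Slc26a4 had too few counts for the filter on low values and was not tested. It had 4, 13 and 6 counts in the Smarcb1-labelled libraries, with 17, 27 and 2 in Arid2-labelled ones and 1, 2 and 3 in wild type. The Smarcb1-labelled libraries lay above the wild-type libraries, while the Arid2-labelled libraries overlapped them because replicate 3 had 2 counts. Per total count the Smarcb1-labelled libraries held 3.24 times the wild-type level (counting interval 1.28 to 9.74) and the Arid2-labelled libraries 3.56 times (1.52 to 10.2). These intervals cover counting error only. Counts this low were not set against the spread between libraries.

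None of the 6 members tested passed in any comparison by edgeR. In the Arid2-labelled libraries against wild type 0.556% of all genes were called, 0.234% higher and 0.322% lower. In the Smarcb1-labelled libraries against wild type 7.9% were called, 2.15% higher and 5.74% lower. Between the Smarcb1-labelled and Arid2-labelled libraries 16.3% were called, 6.95% higher and 9.32% lower. At an unadjusted p under 0.05 the members numbered 3 of 6 in the Arid2-labelled libraries and 0 of 6 in the Smarcb1-labelled libraries against wild type, and 2 of 6 between the labelled groups, where 14.9%, 28.4% and 35.8% of all genes did. DESeq2 called 2, 0 and 2 members, against 5.2%, 16.3% and 25.4% of all genes. The median log2 fold change of the 6 was -0.74, -0.05 and 0.69 in these comparisons, against 0.02, 0.05 and 0.003 for all genes tested. Groups without overlap, beside those given with each gene, covered 17.1% of genes on the higher and 16.7% on the lower side in the Smarcb1-labelled libraries against wild type, where no tested member was among them. Between the labelled groups 18.3% of genes lay higher without overlap, again with no member. The 2 comparisons with wild type share the wild-type libraries.

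Several of these values moved when base composition was taken into account. The longest transcript of Slc5a5 held 58.3% G and C, that of Kcnq1 56.9% and that of Slc26a7 38.0%. With an offset for the GC trend of every library, Slc5a5 had a log2 fold change of -0.10 in the Smarcb1-labelled libraries against wild type (edgeR adjusted p = 0.926) and 1.86 against the Arid2-labelled libraries (edgeR adjusted p = 0.0395). Between the labelled groups Slc26a7 then had 0.17 and Kcnq1 -0.22, with edgeR adjusted p of 0.620 and 0.447. In the Arid2-labelled libraries against wild type Slc5a5 had -1.96 (edgeR adjusted p = 0.0636), close to its value without that step.

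**Figure D3:**
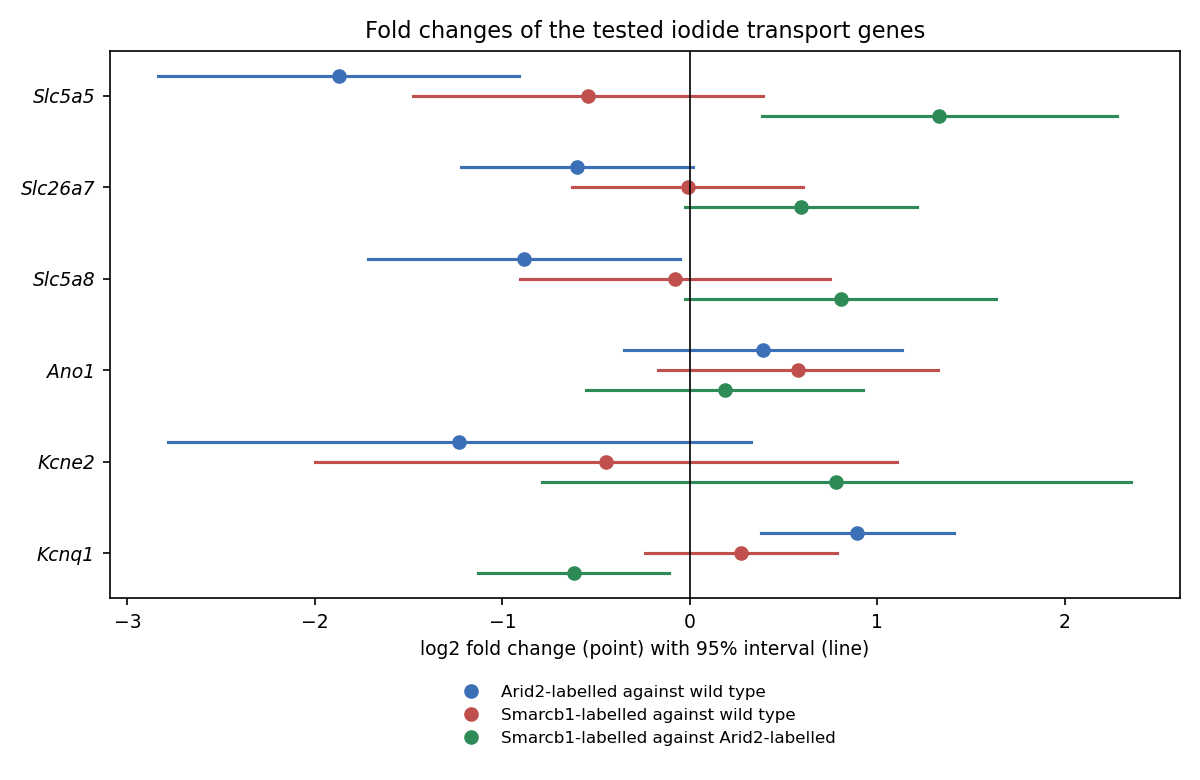
Log2 fold changes of the 6 tested genes in the 3 comparisons with 95% intervals. The intervals of Slc5a5 (-2.84 to -0.91), Slc5a8 (-1.72 to -0.05) and Kcnq1 (0.38 to 1.41) leave out 0 in the Arid2-labelled libraries against wild type, though none passed after adjustment.

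Genes that work beside iodide transport were described through 10 lists holding 81 genes outside the members. In the Arid2-labelled libraries against wild type, 1 of 12 hormone production genes fell and none rose. It was Duoxa1, the maturation factor of dual oxidase 1, with 2.39, 2.94 and 3.57 CPM in the Arid2-labelled group, against 11.7, 19.4 and 22.1 CPM in wild type. The groups were far apart, with a log2 fold change of -2.58 (SE 0.38, edgeR adjusted p = 0.0269). Duoxa1 shares 17.15% of its exonic bases with its neighbour Duoxa2, whose log2 fold change was 0.24. The part of the shared bases in the Duoxa1 value was not tested, so its size is uncertain. The call was lost in 6 of the 9 fits that left out 1 library, those without any 1 of the libraries compared, with values between -2.80 and -2.39. It was also lost without both libraries that hold thymus markers. Duox1, its oxidase partner, had a log2 fold change of -1.80 that did not pass (edgeR adjusted p = 0.148, DESeq2 adjusted p = 0.00919). In the thyroid transcription factor list 0 of 4 passed, and Foxe1 was nearest, at -0.72 (edgeR adjusted p = 0.122, DESeq2 adjusted p = 0.00848). Of the 5 genes known to move Slc5a5 to or from the membrane, 0 passed in any comparison, and Pttg1ip, which draws the symporter inside, had values between -0.17 and -0.06.

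In the Smarcb1-labelled libraries against wild type, Foxe1, a forkhead factor needed for thyroid formation, fell to 44.7, 61.8 and 50.9 CPM, against 241, 278 and 201 CPM in wild type. Every Smarcb1-labelled library lay far below every wild-type library. The log2 fold change was -2.19 (SE 0.19, edgeR adjusted p = 0.00102), and it passed whichever of the 9 libraries was omitted. With the GC trend removed it was -1.28 (edgeR adjusted p = 0.00305). Pax8 and Nkx2-1, which with Foxe1 hold thyroid identity and bind the Slc5a5 gene in rodent thyroid cells, had log2 fold changes of -0.48 and -0.44 that did not pass (edgeR adjusted p of 0.0763 and 0.111). DESeq2 gave them adjusted p of 0.0138 and 0.0371. In the transporter families, 1 of 7 other Slc26 genes, 1 of 6 other Slc5 genes and 1 of 9 other anoctamins fell and none rose. Slc26a10, at -1.16 (edgeR adjusted p = 0.0152) and not called without wild-type replicate 1, is uncertain because it shares 17.8% of its exonic bases with B4galnt1. Slc5a11, a myo-inositol transporter, had -1.78 (edgeR adjusted p = 0.0376) and Ano8 -0.76 (edgeR adjusted p = 0.0453). The Slc5a11 call was lost in 7 and the Ano8 call in 8 of the 9 fits without 1 library. Both were lost with the parathyroid covariate, as was that of Slc26a10. Parathyroid marker sums did not overlap between these groups, so the covariate is partly tied to the group. No gene of the hormone production, sodium pump, other chloride channel or Kcnq and Kcne family lists passed.

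Between the Smarcb1-labelled and Arid2-labelled libraries, 1 of 12 hormone production genes rose, Duoxa1, by 1.98 (SE 0.37, edgeR adjusted p = 0.0141). Its shared bases limit this value too. Foxe1 had a log2 fold change of -1.48 (edgeR adjusted p = 0.00470), or -0.59 with the GC trend removed (edgeR adjusted p = 0.0317). In the thyrotropin and cAMP signalling list 2 of 11 genes rose, Crem, a transcription factor of cAMP signalling, at 0.74 (edgeR adjusted p = 0.0222) and Prkar1a, a regulatory subunit of protein kinase A, at 0.42 (edgeR adjusted p = 0.0236). The calls of Crem and Prkar1a were lost without Arid2-labelled replicate 2 or 3 or Smarcb1-labelled replicate 3, that of Crem also without Smarcb1-labelled replicate 1, and that of Duoxa1 without Arid2-labelled replicate 2 or 3. Atp1b3, a beta subunit of the sodium pump, rose by 0.44 (edgeR adjusted p = 0.0305), while Clcn7 (-0.39) and Lrrc8a (-0.53) fell, at edgeR adjusted p of 0.0492 and 0.0475. Lrrc8a shares 68.3% of its exonic bases with other genes and is uncertain.

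Further calls between the labelled groups fell in the transporter and channel families. Slc26a10 had a log2 fold change of -1.67 (edgeR adjusted p = 0.00440). Ano3 and Ano9 rose by 2.59 and 0.66 and Ano8 fell by 1.02, at edgeR adjusted p of 0.0166, 0.0431 and 0.0141. Slc5a1, the sodium/glucose cotransporter, rose by 1.18 (edgeR adjusted p = 0.0403) with mean levels of 0.733 CPM in the Smarcb1-labelled libraries and 0.321 CPM in the Arid2-labelled libraries. Of the 9 fits without 1 library, the call of Atp1b3 was lost in 6, that of Clcn7 in 7, those of Lrrc8a, Slc5a1 and Ano9 in 8 and that of Ano3 in 3, and Ano8 was not called without Arid2-labelled replicate 3. Foxe1 and Slc26a10 were the calls that held in all 9 fits without 1 library and in all 10 other variations in this comparison. Parathyroid markers differ between these groups as given above, and with a parathyroid covariate every other call named here for this comparison was lost. The marker sums of these groups did not overlap, so the covariate cannot be fully told apart from the group. The part of parathyroid tissue in these calls was not tested.

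**Figure D4:**
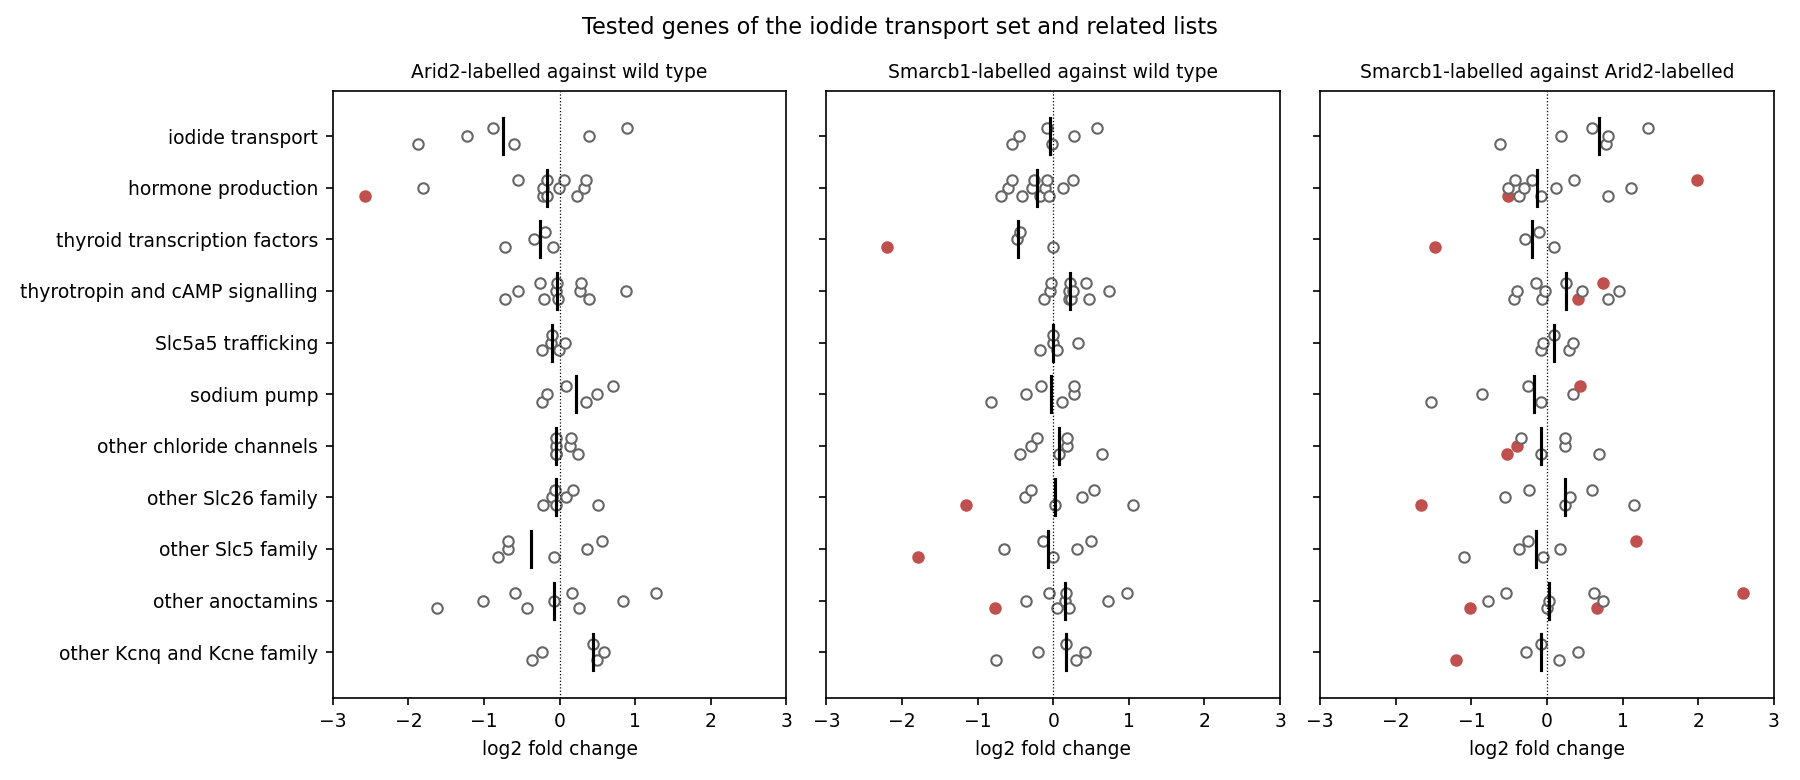
Log2 fold changes of the genes in the 10 related lists and of the 6 tested iodide transport genes in the 3 comparisons, with 1 circle per gene, filled where it was called, and a bar at the median of each list. Of the filled circles, Duoxa1 lies at -2.58 in the Arid2-labelled libraries and Foxe1 at -2.19 in the Smarcb1-labelled libraries against wild type.

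Genes with the profile most like a member's over the 9 libraries were sought among 12652 genes for the 2 members that varied most. The measure was the root mean square difference of log2(CPM + 0.5), centred over the libraries. For Slc5a5, with an SD of 0.997 on that scale, the nearest were Eddm3b at 0.300, Gjb5, a connexin, at 0.336 and Tlr2, a receptor of innate immunity, at 0.347. Eddm3b had 98.7, 84.3 and 32.9 CPM in the Smarcb1-labelled libraries, with 28.5, 22.8 and 27.7 CPM in Arid2-labelled ones and 80.7 to 105 CPM in wild type. Like Slc5a5, it was low in Smarcb1-labelled replicate 3 and in all Arid2-labelled libraries. For Slc5a8, with an SD of 0.663, the nearest were Upb1 at 0.291, Zfp882 at 0.323 and Efha2 at 0.325. These places describe 9 libraries whose groups also differ in depth, with the Arid2-labelled libraries deepest.

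**Figure D5:**
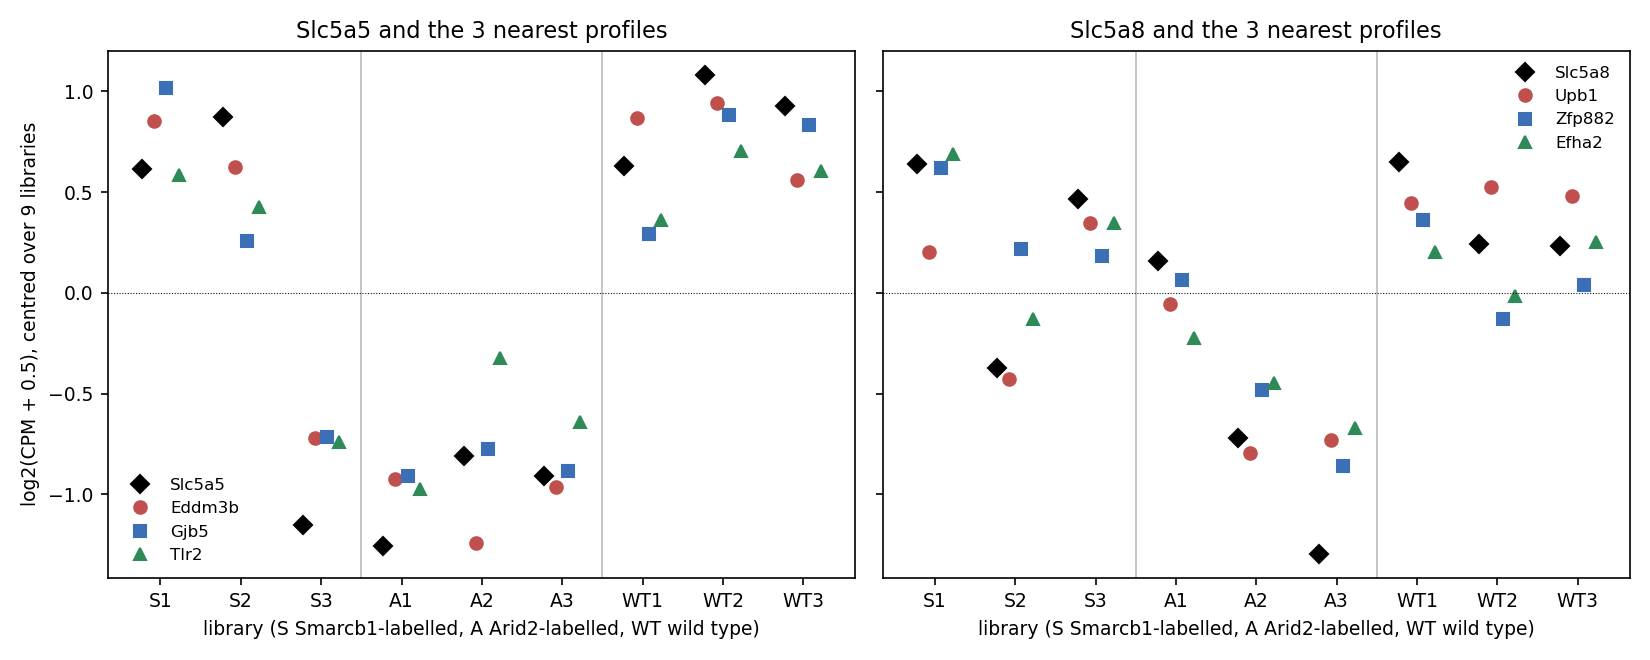
Profiles of Slc5a5 and Slc5a8 and of the 3 genes nearest to each, as log2(CPM + 0.5) centred over the 9 libraries, with 1 symbol per gene and library. The Slc5a5 set is low in Smarcb1-labelled replicate 3 and in the 3 Arid2-labelled libraries and high in the other 5.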

How the data were processed

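RNA from flash-frozen mouse thyroids, taken with TRIzol and made into libraries with a TruSeq RNA kit per the labels' protocols, had been sequenced. The values are the raw read counts per gene deposited by the authors, as whole numbers not scaled in any way. STAR 2.4, HTSeq 0.6.1, DESeq2 and build mm9 are named in the submitters' processing notes, without their roles.

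Groups came from the genotype labels, and replicate numbers only follow accession order. edgeR 4.0.16 (quasi-likelihood F test, TMM, filterByExpr, R 4.3.3) was fitted to all 9 libraries in 1 model of 3 group means, which kept 17079 genes, and the threshold for a call was 0.05 after Benjamini-Hochberg adjustment over them. Levels are TMM-scaled CPM, and levels per length use the exon union of each gene in a GRCm38 annotation, matched by symbol. Counting intervals cover counting error only, since reads of PCR copies carry no molecular identifier. Replicates of 1 group differed by a chi-square per degree of freedom of 47.6 to 122, so none is a copy of another. Alternatives were other scalings, no filter or a CPM filter, DESeq2 1.42.0, the 6 compared libraries alone, a GC trend offset (GC known for 97.2% of tested genes), a parathyroid covariate, leaving out both thymus-marked libraries, and leaving out each library in turn. The test was checked on simulated counts. Of 100 genes changed 2-fold it recovered 43 in the Arid2-labelled and 48 in the Smarcb1-labelled comparison with wild type. Between the labelled groups it recovered 56. Of 100 genes changed 4-fold it recovered 87, 97 and 91 in the same order, with 3, 6 and 9 false calls. A 2-fold change can therefore fail to pass. Every simulated gene took the spread of the trend at its level, and only genes above 1 CPM were changed. Real genes scatter around that trend, so recovery and false calls in these data can differ.

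The 7 genes, the lists and the variations were chosen with earlier results of these data known. The text names all 7 in every comparison and, of each list, every gene that passed or otherwise up to 2 with the smallest unadjusted p; Tg, Duoxa2, Pax8, Nkx2-1 and Pttg1ip were added beside the result they touch. A few genes under this rule are not reported here.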

Additional observations from a re-analysis of the deposited data

How the results depend on the processing

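No paired analysis was possible because the replicate numbers only follow accession order and pair no libraries. Over the 6 tested members, the 3 comparisons and all alternatives, no called member existed to lose, and the calls gained are given with each gene. The count of members called in the Arid2-labelled libraries against wild type was 2 with DESeq2, 1 with only the 6 libraries compared and 0 to 1 without 1 library. Between the Smarcb1-labelled and Arid2-labelled libraries it was 2 with DESeq2, 1 with the GC trend removed, 2 without both libraries with thymus markers and 0 to 1 without 1 library. The cause of these changes was not tested.

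Near 0, some signs turned in the Smarcb1-labelled libraries against wild type. Slc26a7 (-0.01) was 0.10 with thyrocyte marker scaling and 0.10 without the thymus-marked libraries, and ran from -0.43 to 0.17 without 1 library. Slc5a8 (-0.08) was 0.061 and 0.13 under those alternatives, and -0.28 to 0.17 without 1 library. Ano1 (0.58) was -0.013 without the thymus-marked libraries. Against the Arid2-labelled libraries, Ano1 (0.19) was -0.36 without them and -0.36 to 0.45 without 1 library.

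The count of all genes called depended most on the processing. In the Arid2-labelled libraries against wild type it was 95, with 888 by DESeq2, 201 with only the 6 libraries, 260 with the GC trend removed and 56 without the thymus-marked libraries. Without 1 library it was 5 to 167, at 5, 14 and 45 without Arid2-labelled replicates 2, 3 and 1, at 12, 30 and 56 without wild-type replicates 1, 2 and 3 and at 167 without Smarcb1-labelled replicate 1. In the Smarcb1-labelled libraries against wild type it was 1349, with 2777 by DESeq2, 486 with only the 6 libraries, 406 with the GC trend removed, 197 with the parathyroid covariate, 2166 without the thymus-marked libraries and 344 to 2538 without 1 library, lowest without Smarcb1-labelled replicate 3 and highest without replicate 2. Between the labelled groups it was 2779, with 1694 under thyrocyte marker scaling, 4337 by DESeq2, 1348 with only the 6 libraries, 1184 with the GC trend removed, 145 with the parathyroid covariate and 395 to 4411 without 1 library, lowest without Arid2-labelled replicate 3 and highest without Smarcb1-labelled replicate 2. Thyrocyte marker scaling moved the median of all genes from 0.02 to 0.18 in the Arid2-labelled libraries and from 0.05 to 0.20 in the Smarcb1-labelled libraries against wild type, and split the calls 47 higher and 30 lower (40 and 55 under TMM) and 696 and 351 (368 and 981 under TMM). With the GC trend removed the labelled groups split 641 and 543 (1187 and 1592 before). Parathyroid marker sums of the Smarcb1-labelled libraries overlapped neither other group, so that covariate is partly tied to the label. Kcne2 has no value under the CPM filter, and depth limits Slc26a4 and Kcne2 most.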
